A study of Mus musculus with 4 samples.

Results

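The eWAT of ASK1-deficient (ASK1KO) mice was compared with the eWAT of wild-type (WT) mice on 1 one-colour Agilent mouse array for each genotype, across all genes. Of the 4 arrays of the series, these 2 hold epididymal white adipose tissue (eWAT) and the others hold interscapular brown adipose tissue (iBAT). Each array was hybridized with a Cy3-labelled pool of RNA from 3 males, 10 weeks of age, taken under basal conditions with no drug or cold treatment named in the labels. The mice were of the C57BL/6J strain, ASK1 was missing from the whole body, and the WT and ASK1-deficient colonies were bred separately, so that genotype and colony cannot be told apart. Of 22066 genes with a probe on the array, 15377 had a probe well above background on both eWAT arrays and were compared. With 1 array for each genotype no test was possible, the spread between mice is unknown, and every value below is the size of a difference between 2 pools.

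ASK1, encoded by Map3k5, is a MAP kinase kinase kinase that answers to oxidative and other stress and activates the p38 and JNK kinases. Epididymal fat is a white depot whose adipocytes store triglyceride in a single droplet, and it holds few of the adipocytes that burn fat for heat through the uncoupling protein Ucp1. It also holds macrophages, lymphocytes, vessels, stromal cells and a covering of mesothelium, and it lies in the abdominal cavity.

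Signals are the scanner software's background-corrected intensities on a linear scale. The log2 ratio is ASK1-deficient minus WT after the 75th percentile of each array, a signal of 673 in the WT pool and 634 in the ASK1-deficient one, was subtracted on the log2 scale, so it differs slightly from the ratio of the printed signals. On WT eWAT 33389 of 55681 probes were well above background and on ASK1-deficient eWAT 32488. Over the 292 probes with at least 5 usable spots, the log2 ratio varied among the spots of a probe with a median SD of 0.060, a spread of the array that says nothing of the mice.

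The profile of the 2 pools was alike for most genes. The median log2 ratio over all genes was 0.02, and 96.0% of genes lay within 1.5-fold. At least 2-fold apart were 177 genes, or 1.15% of those compared. Of these, 44 (0.286%) were higher and 133 (0.865%) lower in ASK1-deficient eWAT. The lower side reached further, with 21 genes at least 8-fold lower and 4 genes at least 4-fold higher. The threshold itself has no step in the data, since on the lower side Marveld2, with signals of 59.1 in WT and 27.7 in the ASK1-deficient pool, was the last gene inside it and F5, with 139.9 and 65.9, the first outside. Normexp background correction, which raises dim signals, gave 10 genes higher, all among the 44, and 50 lower, of which 49 were among the 133. Of the genes lower by at least 2-fold, 54 had a signal under 50 on the dimmer array, and of those higher 22 had.

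**Figure D1:**
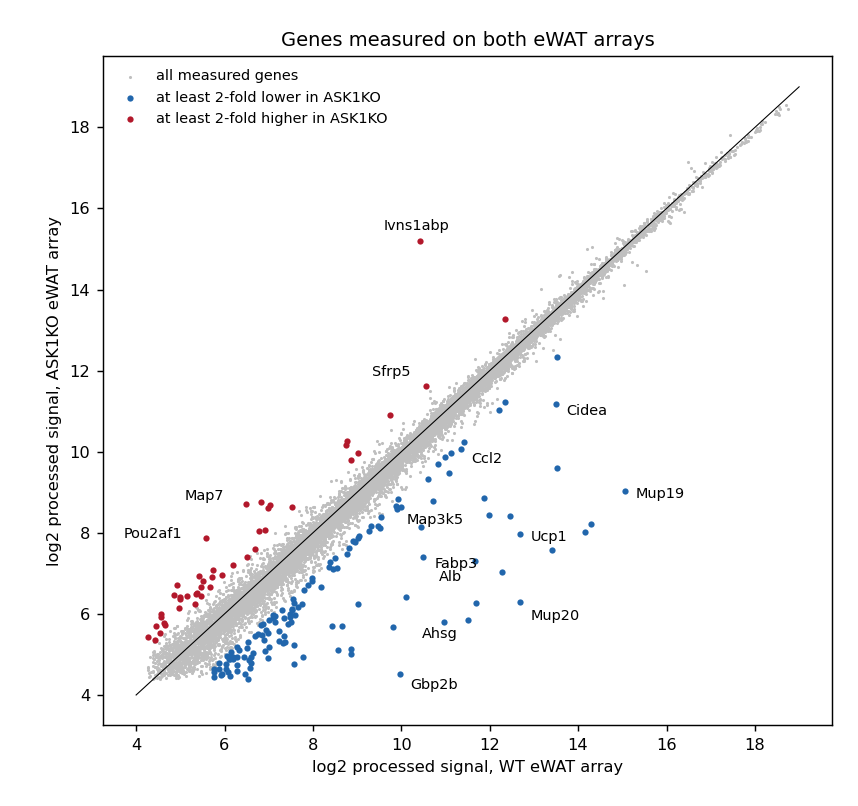
Signal of each of the 15377 genes on the WT eWAT array (horizontal) and the ASK1-deficient eWAT array (vertical), both on a log2 scale, with the line of equal signal. Blue points are the 133 genes at least 2-fold lower and red points the 44 genes at least 2-fold higher after scaling; the blue points spread over a wider range of differences than the red ones, and Ivns1abp is the mean of 2 probes that differed.

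The targeted gene itself gave different values at its 2 probes. Both lie on chromosome 10 on the plus strand of the mouse assembly mm9, at chr10:19860474-19861330 and chr10:19862193-19862252, and the span given for the first is longer than its 60 bases. They are shown because the label of the ASK1-deficient array is checked by them, the first whole and the second by its first 30 bases.
Map3k5 probe 1: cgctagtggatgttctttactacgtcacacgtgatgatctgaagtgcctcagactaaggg
Map3k5 probe 2: tctatgacatcaactagaatgtgtctctct
At probe 1 the signal was 701 in the WT pool and 194 in the ASK1-deficient one, a log2 ratio of -1.76. At probe 2 it was 1264 and 836, a log2 ratio of -0.51. Probe 1 showed the same order in iBAT, with 448.0 in WT and 117 in ASK1-deficient tissue, while probe 2 was at 1081 and 1082 there. The mean over both probes, -1.14, put Map3k5 among the genes at least 2-fold lower in eWAT. The ASK1-deficient pool therefore kept signal at both probes, and which part of the transcript remains was not tested.

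The labelled tissue was checked on genes that define white fat. All 16 genes of the white adipocyte list were measured, and none was 2-fold apart. Their log2 ratios ran from -0.09 for Pparg, the master regulator of adipocyte differentiation, to 0.30 for Lep, which encodes leptin. The median was 0.07, beside 0.02 for all genes. Adipoq, which encodes adiponectin, had a signal of 292672 in the WT pool and 293866 in the ASK1-deficient one. Leptin gave 7232 and 8398 in eWAT, beside 162 and 231 in iBAT. The lists of the epididymis and testis and of the exocrine pancreas, organs next to this depot or in the same cavity, had 4 of 23 and 5 of 15 genes measured and none was 2-fold apart.

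Some of the genes that set brown adipocytes apart were lower in the ASK1-deficient pool, while most of that list was within 2-fold. Of 27 genes of the brown adipocyte-selective list 23 were measured on both arrays. Of these, 6 were at least 2-fold lower, a share of 26.1% beside 0.865% of all genes, 0 were at least 2-fold higher and 19 lay below 0. With normexp 3 of the 6, Ucp1, Fabp3 and Cidea, were still past 2-fold. The median was -0.38. Ucp1, whose protein lets protons back into the mitochondrial matrix as heat, led the list, and its probe at chr8:85821788-85821847 (mm9, plus strand) is shown because the largest difference of the list rests on this single probe.
Ucp1: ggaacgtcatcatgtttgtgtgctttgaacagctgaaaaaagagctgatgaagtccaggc
The Ucp1 signal was 6603 in the WT pool and 252 in the ASK1-deficient one, a log2 ratio of -4.63, or 24.7-fold. Fabp3, a carrier of fatty acids in oxidative tissues, had 2 probes, at -3.09 and -2.94, with a mean signal of 1447 in the WT pool and 168 in the ASK1-deficient one. Cidea, a lipid droplet protein, gave 11531 and 2316, a log2 ratio of -2.23. Among the genes of this list measured on both arrays these 3 were the ones over 4-fold lower.

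The rest of the brown list formed a gradient. Kng2 (-1.58), the acyl-CoA thioesterase Acot11 (-1.03) and Dio2 (-1.02), the deiodinase that makes active thyroid hormone, were between 2-fold and 3-fold lower. Cpt1b, the muscle and brown fat form of the enzyme that brings fatty acids into mitochondria, stood just short at -0.97. Cox8b and Cox7a1, cytochrome c oxidase subunits of muscle and brown fat, were at -0.84 and -0.83, with signals of 11019 and 5792 for Cox8b. Otop1 was at -0.82. The regulators of the brown programme lay nearer to 0, with Ppargc1a at -0.19, Prdm16 at -0.11, Ppara at 0.03 and Ebf2 at 0.08, and Zic1 was the highest at 0.40. Slc27a2, a very long-chain fatty acid transporter and activating enzyme that the liver also makes, and Elovl3, an elongase, were well above background in WT eWAT only. The signal of Slc27a2 was 269.7, which made it at least 12.2-fold lower, and Elovl3 was dim at 36.6.

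The 3 lowest brown genes were far brighter in iBAT than in either eWAT pool. There Ucp1 gave 343275 in WT and 263161 in ASK1-deficient tissue, Fabp3 gave 123554 and 119257, and Cidea 514381 and 473797. The log2 ratios in iBAT were -0.44 for Ucp1, -0.11 for Fabp3 and -0.18 for Cidea, smaller in size than in eWAT, and the difference between the depots was not tested. Summed over the list, the scaled signal was 85.7 in the WT pool and 46.9 in the ASK1-deficient one, beside 5320 and 4484 in iBAT. The sum for the white adipocyte list was 4975 in the WT pool and 5063 in the ASK1-deficient one. In bulk tissue, fewer brown-like cells and less RNA of these genes in each cell cannot be told apart.

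**Figure D2:**
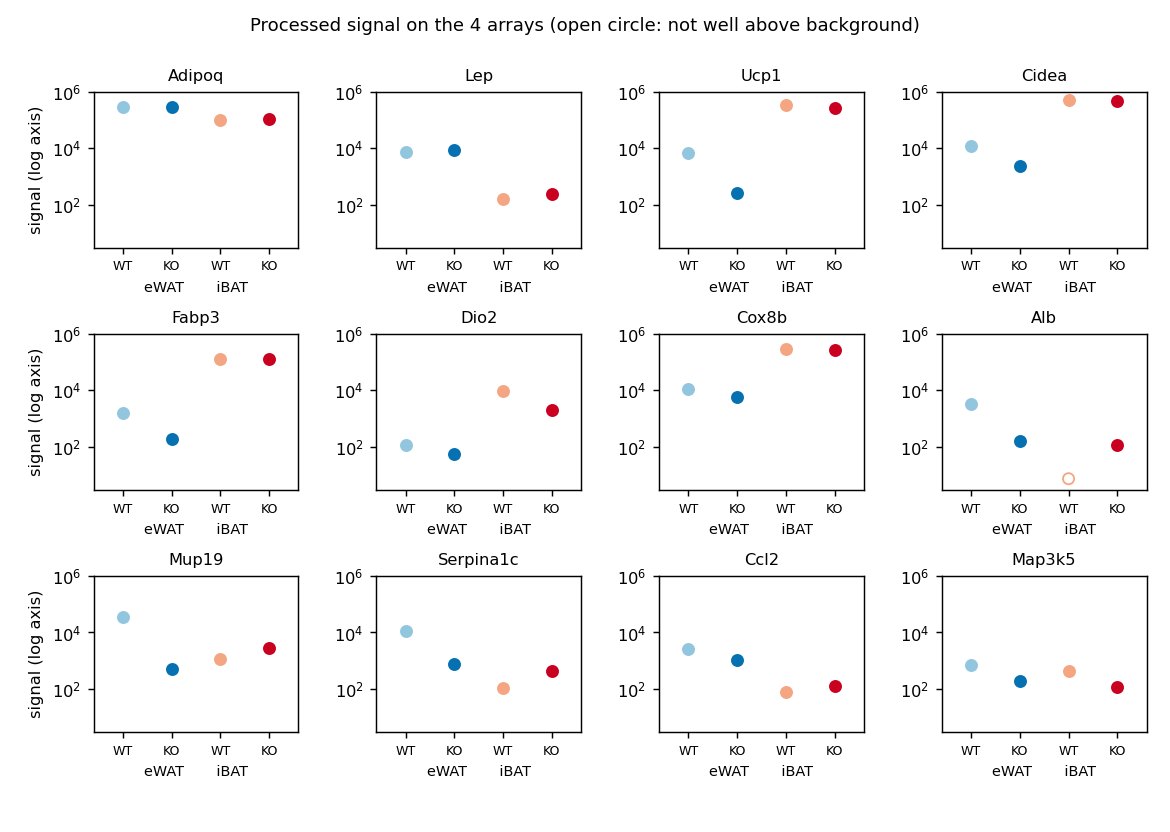
Processed signal (log axis) of 12 genes on the 4 arrays, 1 point for each array, with the brightest eWAT probe shown for each gene and probe 1 for Map3k5; open circles were not well above background. Adipoq and Lep were level between the 2 eWAT arrays, Ucp1, Cidea and Fabp3 were lower in ASK1-deficient eWAT and high on both iBAT arrays, and Alb, Mup19 and Serpina1c were highest in WT eWAT.

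Genes of mitochondrial fuel use outside that list were level. The 25 genes of the respiratory chain and ATP synthase list ran from -0.06 to 0.13, with a median of 0.05. The 20 genes of fatty acid oxidation had a median of 0.02 and none was 2-fold apart. Beige adipocyte markers, which mark the inducible brown-like cells of white fat, were measured for 9 of 12 genes with a median of 0.02. Of these Tbx1 was 2-fold lower, with 328 in the WT pool and 144 in the ASK1-deficient one (-1.10, and -0.85 with normexp), and Cd40 was at -0.63.

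**Figure D3:**
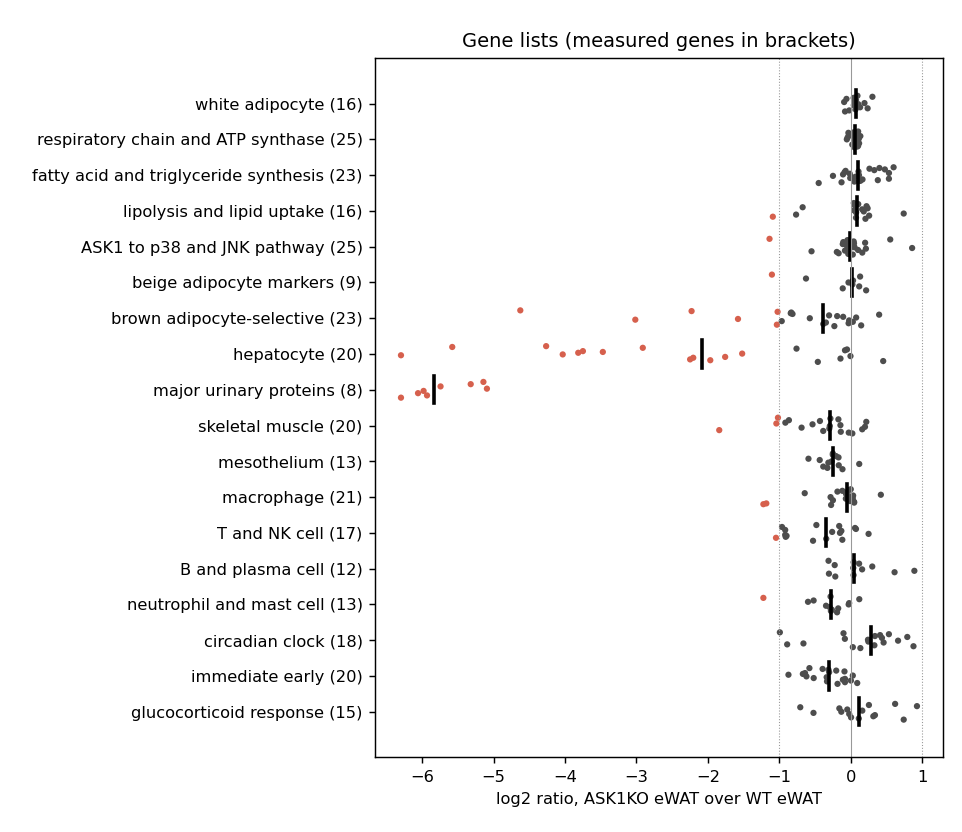
Log2 ratio (ASK1-deficient over WT eWAT) of each measured gene of 18 lists, with the number of measured genes in brackets; points are genes, red where at least 2-fold apart, bars are list medians and dotted lines mark 2-fold. The hepatocyte and major urinary protein lists lie far to the left, the brown list spreads to the left, and the white adipocyte and respiratory chain lists sit at 0.

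Genes of lipid handling were mostly within 2-fold. In the list of fatty acid and triglyceride synthesis 15 of 23 genes were above 0, and the highest were Fasn, the fatty acid synthase (0.60), Elovl6, an elongase (0.53), Lpin1 (0.53) and Acly, which supplies cytosolic acetyl-CoA (0.48). In iBAT the same genes were below 0, with Fasn at -1.54 and Elovl6 at -0.99, and this contrast was not tested. In the list of lipolysis and lipid uptake the lipases stayed near 0, with Pnpla2 at 0.04 and Lipe at 0.10. G0s2, an inhibitor of the lipase Pnpla2, was at -0.67 and Angptl8 at -0.77, while Angptl4, a secreted inhibitor of lipoprotein lipase, was at 0.74. Slc2a5, a fructose transporter, was the 1 gene of the glucose list 2-fold higher, at 1.01, with signals of 103 in WT and 195 in the other pool, and it came under 2-fold in 4 alternatives, at 0.70 with normexp. Sfrp5, a secreted Wnt antagonist made by adipocytes, was also past 2-fold, with signals of 1501 and 3124 (1.15), as was Stbd1, a glycogen-binding protein, with 862 and 1922 (1.24).

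The kinases downstream of ASK1 were level. Of 26 genes of the pathway list 25 were measured, and Map3k5 was the only one 2-fold apart. The median of the list was -0.02. The p38 gene Mapk14 was at 0.05 and the JNK gene Mapk9 at 0.04. Txnip, an inhibitor of thioredoxin, which itself binds ASK1, was the highest at 0.86, with 12076 in the WT pool and 20609 in the ASK1-deficient one. Map3k6, the close relative known as ASK2, was at 0.55, and Dusp10, a phosphatase of p38 and JNK, at -0.55. In iBAT these were 1.38, 0.92 and -0.95.

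The lowest values of all belonged to transcripts known from hepatocytes. Of 30 genes of the hepatocyte list, 20 were measured on both arrays with a median of -2.09, and 13 of these, or 65.0% beside 0.865% of all genes, were past 2-fold on the lower side. The other 10 were well above background in WT eWAT only. Alb, which encodes albumin, gave 3234 in the WT pool and 158 in the ASK1-deficient one (-4.26). Ahsg, the plasma glycoprotein fetuin-A, gave 2934 and 57.8 (-5.58). Serpinc1, which encodes antithrombin, gave 892 and 51.3 (-4.03), and Hnf4a, a transcription factor of hepatocytes, 164 and 39.5 (-1.97). Hpx, which encodes hemopexin, was at -3.75, Itih3 at -2.25, Kng1, a kininogen, at -2.20, Cyp3a11, a drug-metabolizing enzyme, at -1.76 and Serpina3k at -1.52. Unlike Alb, Kng1 was brighter in iBAT, with 17473 in the WT pool and 26114 in the ASK1-deficient one, than in eWAT, with 1389 and 283. Apoa2, an apolipoprotein, was at -2.91 from 2 probes that differed, at -5.08 and -0.74. The 7 measured genes that were not 2-fold apart included Hp, Trf and Cyp2e1, which adipose tissue also makes. They gave 373790, 228512 and 199062 in WT eWAT, and log2 ratios of -0.08, -0.05 and 0.00.

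Transcripts with no signal above background in the ASK1-deficient pool add to that group. In all, 551 genes were well above background in WT eWAT only, and 131 of these were at least 2-fold lower when set against the dimmest signal called above background. On the ASK1-deficient array only were 198 genes, 57 of them at least 2-fold higher. The largest of these bounds were those of Pak7, a kinase of the PAK family, with 351 in the ASK1-deficient pool and at least 18.2-fold higher, 4933402J07Rik (at least 8.57-fold), Fam3b (7.85-fold), Mmp7, a metalloproteinase (6.41-fold), and Vmn2r113 (4.77-fold). On the lower side the largest were mostly liver transcripts. Fabp1, the liver fatty acid carrier, had a signal of 1923 in WT and was at least 87.4-fold lower. Ambp, at 1783, was at least 81.0-fold lower, Bhmt, an enzyme of methionine metabolism, at least 67.6-fold, Gc, the vitamin D binding protein, at least 62.2-fold, and the fibrinogen chain Fgg at least 49.0-fold. Ttr, which encodes transthyretin, had 829 in WT and was at least 37.7-fold lower. The largest bound of all, for Slc6a7, rested on a single spot with a signal of 155826 on the WT array.

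The major urinary proteins, small pheromone carriers that the liver secretes and that males excrete, were the lowest family. Of 10 on the array 8 were measured on both arrays, and all 8 were between 34.1-fold and 78.6-fold lower, with a median log2 ratio of -5.84. Mup19 gave 34126 in the WT pool and 526 in the ASK1-deficient one, Mup9 gave 20066 and 299, and Mup20 gave 6565 and 78.6. Mup2 gave 4953 and 132. Mup6 and Mup21 were well above background in WT eWAT only. The genes are near copies of each other on chromosome 4, and the probes are shown because the members cannot be read as independent. Those of Mup9 (chr4:60432618-60432677), Mup3 (chr4:61745794-61745853) and Mup6 (chr4:60018835-60018894) are from mm9, on the minus strand for Mup9 and Mup3 and the plus strand for Mup6. The capitals mark the bases at which the Mup3 and Mup6 probes differ from each other.
Mup9: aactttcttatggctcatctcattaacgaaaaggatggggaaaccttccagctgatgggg
Mup3: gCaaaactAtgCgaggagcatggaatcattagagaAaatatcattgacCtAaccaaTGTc
Mup6: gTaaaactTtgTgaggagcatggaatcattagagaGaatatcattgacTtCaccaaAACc
The Mup3 and Mup6 probes share 51 of 60 bases, and the Mup4 probe and 1 Mup20 probe share 45 of the 52 bases over which they overlap. A transcript of one member may bind the probe of another, so the values of single members are uncertain.

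In iBAT the ASK1-deficient pool was the brighter one for the following of these genes. Mup19 gave 1167 in the WT pool and 2863 in the ASK1-deficient pool of iBAT, and Serpina1c, a protease inhibitor of plasma, 112 and 451 there, beside 11692 and 782 in eWAT. Alb was not well above background in the WT pool of iBAT, and the ASK1-deficient one gave 115. For these named genes WT eWAT was thus the pool with high signal among the 4, and what brought these transcripts into that pool was not tested. Summed over the major urinary protein list, the scaled signal was 160 in WT eWAT, 2.74 in ASK1-deficient eWAT, and in iBAT 8.93 and 21.4 in the same order. Ucp1 and the hepatocyte genes were both higher in WT than in ASK1-deficient eWAT, and the part of one in the other was not tested.

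Promoters of 2 of these genes are shown because both genes were lower and both windows hold a short motif. The motif searched was TTATGNAA on either strand, a D-box to which Dbp, Tef, Hlf and the repressor Nfil3 can bind, in the 250 bases before the start site given by RefSeq (GRCm38.p6). Those of Alb (chr5:90460620-90460869, plus strand) and Mup9 (chr4:60421953-60422202, minus strand) follow, with matches in capitals.
Alb: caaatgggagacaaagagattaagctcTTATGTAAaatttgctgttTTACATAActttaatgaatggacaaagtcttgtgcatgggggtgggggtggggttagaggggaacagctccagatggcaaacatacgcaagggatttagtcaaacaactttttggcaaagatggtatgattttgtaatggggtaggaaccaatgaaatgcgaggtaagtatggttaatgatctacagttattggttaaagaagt
Mup9: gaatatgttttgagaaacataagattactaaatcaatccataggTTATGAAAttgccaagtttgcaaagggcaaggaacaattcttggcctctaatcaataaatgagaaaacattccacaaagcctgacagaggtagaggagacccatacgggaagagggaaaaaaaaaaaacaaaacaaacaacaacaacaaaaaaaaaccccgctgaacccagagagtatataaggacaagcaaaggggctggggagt
The Alb window holds 2 matches, which begin 223 and 204 bases before the start, and the Mup9 window holds 1, at 206. Of 12036 measured genes with a window 2.65% held the motif, and of the 105 lower genes with a window 12 did, or 11.4%. Of the 12, 4 were major urinary protein genes, which belong to 1 family of copies, and of 13 hepatocyte-list genes with a window only Alb held it. A match is a description of the letters and not of binding.

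Genes of the circadian clock lay on opposite sides of 0 in the ASK1-deficient pool. In this clock Clock and Arntl (Bmal1) drive the genes of their own repressors, so that Arntl RNA peaks at another time of day than Per, Nr1d1 and Dbp RNA. Of 19 genes of the list 18 were measured, 13 were above 0 and the median was 0.29, beside 0.02 for all genes, but none was 2-fold apart. Arntl was the lowest at -0.99, with 752 in the WT pool and 356 in the ASK1-deficient one. Bhlhe40, a repressor, was at -0.89 and Nfil3 at -0.66, with 1559 in the WT pool and 927 in the ASK1-deficient one. On the other side, Ciart was at 0.88, Per2 at 0.79, with 213 in the WT pool and 347 in the ASK1-deficient one, Dbp at 0.66, with 14870 and 22141, and Nr1d1 at 0.53. Hlf (0.46), Per3 (0.44) and Nr1d2 (0.41) followed.

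In iBAT the order was kept for some of these genes and not for others. Arntl was at -0.58, Bhlhe40 at -1.01, Per2 at 0.38, Dbp at 0.40 and Nr1d1 at 0.96 there, while Ciart was at -0.24 and Hlf at -0.15. The hour at which tissues were taken is not given in the sources used here, so a difference in hour and one in genotype cannot be told apart.

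**Figure D4:**
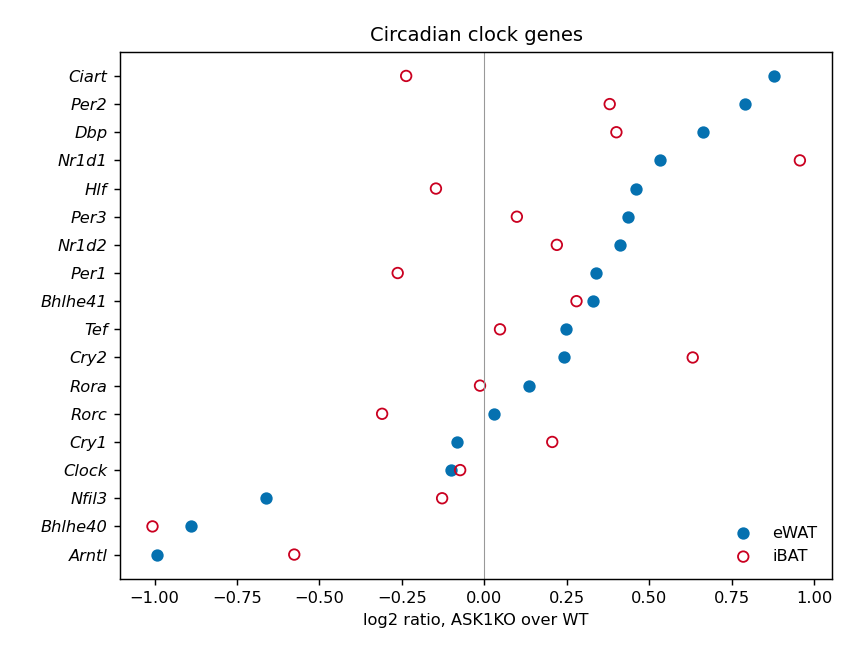
Log2 ratio (ASK1-deficient over WT) of the 18 measured clock genes in eWAT (filled blue) and iBAT (open red), ordered by the eWAT value, 1 array for each genotype and tissue. In eWAT the values run from -0.99 for Arntl to 0.88 for Ciart.

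The promoter of Ciart, a repressor of the clock, is shown because the highest clock gene carries several copies of the E-box CACGTG, the element to which Clock and Arntl bind. It is the window of 250 bases at chr3:95882229-95882478 (GRCm38.p6, minus strand), with matches on either strand in capitals.
Ciart: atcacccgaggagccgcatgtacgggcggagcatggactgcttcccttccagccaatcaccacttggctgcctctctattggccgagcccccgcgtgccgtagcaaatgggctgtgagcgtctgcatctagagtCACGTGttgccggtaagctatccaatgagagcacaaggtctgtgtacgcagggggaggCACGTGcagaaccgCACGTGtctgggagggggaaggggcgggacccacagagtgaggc
The 3 matches begin 116, 58 and 44 bases before the start. Of the clock list 15 genes had a window and 5 held the E-box, namely Bhlhe41, Ciart, Cry1, Per1 and Tef, beside 9.24% of all measured genes with a window. Their log2 ratios were 0.33, 0.88, -0.08, 0.34 and 0.25. Arntl, the lowest gene, is not among them, and neither are Per2, Dbp, Nr1d1, Hlf, Per3 and Nr1d2 on the higher side. The Dbp window held 0 matches.

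Most genes of the macrophage list were level, and Tnf and several chemokines were lower in the ASK1-deficient pool. Of 21 measured genes of the macrophage list Tnf and Ccl2 were at least 2-fold lower, a share of 9.52% beside 0.865% of all genes, and the median was -0.06. Adgre1 (F4/80), Cd68 and Lyz2, which macrophages make at rest, were at 0.00, -0.03 and -0.02. Ccl2, which draws monocytes into tissue, gave 2599 in the WT pool and 1078 in the ASK1-deficient one (-1.18). Tnf gave 73.2 and 29.5 (-1.22), and was at -0.42 with normexp. Il1b, an inflammatory cytokine, was well above background in WT eWAT only, with a signal of 122, and was at least 5.52-fold lower.

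Of 17 measured genes of the Ccl family, taken by their symbols after the values were seen, 5 were at least 2-fold lower, beside 0.865% of all genes, and 12 lay below 0, beside 45.9%. The 5 were Ccl4 (-1.43), Ccl17 (-1.33), Ccl3 (-1.26), Ccl2 and Ccl7 (-1.01), and the median was -0.63. Among 8 genes of the Cxcl family Cxcl10 was lower at the probe measured on both arrays, with 616 in the WT pool and 264 in the ASK1-deficient one. Its second probe went the other way, with 14.8 in WT, not well above background, and 26.6, and the gene came to -0.10 with no filter and -0.89 with normexp. Cxcl10 was also the 1 gene of 22 of the interferon-stimulated list to be 2-fold apart, and the median of that list was 0.09. The acute-phase protein Saa3 gave 1689 and 439 (-1.86), Clec4e, a receptor of macrophages for microbial glycolipid, 95.3 and 25.5 (-1.81), S100a9, a calcium-binding protein of neutrophils, 950 and 383 (-1.22), and Timp1, an inhibitor of metalloproteinases, 1011 and 395 (-1.27). In iBAT Ccl2 was at 0.63, Cxcl10 at 0.82 and Timp1 at 0.77, the opposite side, while S100a9 was at -0.53, the same side.

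Gbp2b, a guanylate-binding protein induced by interferon, stood alone in its family. Its signal was 999 in the WT pool and 22.7 in the ASK1-deficient one, a log2 ratio of -5.37, while the other 9 measured members of the family ran from Gbp9 at -0.13 to Gbp6 at 0.29. Its nearest relatives by name, Gbp2 and Gbp5, were at 0.18 and 0.11. A second probe had 960.4 in WT eWAT and was not well above background in the ASK1-deficient pool. In iBAT both probes were well above background in the WT pool only, with WT signals of 309 and 326, and the gene was at least 19.7-fold lower there.

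Of 17 measured genes of the T and NK cell list 14 were below 0, with a median of -0.34, beside 45.9% of all genes below 0. Gzma, a granule protease of killer cells, gave 1823 in the WT pool and 830 in the ASK1-deficient one (-1.05). Cd3g, a chain of the T cell receptor complex, was at -0.96 and Lck, its kinase, at -0.92, but Cd3e was at -0.16 and Cd4 at 0.06. Ncr1 and Klrb1c, receptors of NK cells, were at -0.91 and -0.90. Of 18 measured genes of the Klr family of NK receptors, chosen after the values were seen, 17 lay below 0 and the median was -0.76, with Klra2 the 1 gene 2-fold lower.

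The list of B and plasma cells was level, with a median of 0.04 over 12 genes and none 2-fold apart. Its members included Jchain, which joins secreted IgM and IgA, at 0.89, Mzb1, a chaperone of antibody secretion, at 0.61, and the B cell markers Ms4a1 at 0.04 and Cd79b at -0.23. Outside the list, Pou2af1, a coactivator of antibody genes, gave 48.2 in the WT pool and 236 in the ASK1-deficient one (2.38), and Irf4, a transcription factor of plasma cells and adipocytes chosen after its value was seen, 463 and 886 (1.02).

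Antibody genes themselves were measured by 77 probes on both eWAT arrays, gathered by their descriptions after the values were seen. The probe for the immunoglobulin kappa constant region gave 1928 in the WT pool and 3564 in the ASK1-deficient one (0.97), and that for the mu constant region 8569 and 12441 (0.63). Of like brightness, 2 probes for the J558 family of heavy chain variable segments, were on the other side, at -0.81 with 7176 and 3844 and at -0.74 with 3502 and 1971. Of the 77 probes 6 were past 2-fold on the higher side and 4 on the lower side, and the median was 0.12. Of all measured probes with a position 1.04% were at least 2-fold apart. Of the 203 antibody probes on the array a further 20 were well above background on the ASK1-deficient array only and 5 on the WT array only. Over all genes 198 were so on the ASK1-deficient array only and 551 on the WT array only. Some of the 20 probes were near the background limit on both arrays, such as that for V9-2, with 21.7 in the WT pool and 23.9 in the ASK1-deficient one. Others were not, such as that for the V11 family, with 5.67 and 110. The probe for the variable segment Igkv14-126 (chr6:67846563-67846622, mm9, plus strand) is shown as the one with the highest ratio of the 77.
Igkv14-126: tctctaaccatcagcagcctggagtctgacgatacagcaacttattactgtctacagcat
It gave 55.1 in the WT pool and 575 in the ASK1-deficient one (3.47). Igkv12-89 (2.43), Igkv14-111 (2.32) and Igkv10-96 (1.94) followed, while Igkv4-53, Igkv4-86, Igkv4-80 and Igkv4-90 were at -1.32, -1.17, -1.11 and -1.05. Variable segments are near copies within a family, so a probe may bind several of them.

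The 13 mesothelium genes had a median of -0.25, with 12 below 0, beside 45.9% of all genes, and Krt8 the lowest at -0.59. Msln, which encodes mesothelin, gave 10222 in the WT pool and 8085 in the ASK1-deficient one. Of 20 skeletal muscle genes 3 were at least 2-fold lower, beside 0.865% of all genes, and the median was -0.30. With normexp all 3 came under 2-fold. These were Ttn (-1.84), Tnni2 (-1.04) and Acta1, skeletal actin, with 5168 in the WT pool and 2399 in the ASK1-deficient one (-1.02), and in iBAT they were at 0.15, -0.01 and 0.18. Fabp3, Cox7a1, Cox8b and Cpt1b of the brown list are also made in muscle, and the part of muscle in their values was not tested. The muscle gene Ckm was well above background in WT eWAT only, at 26.3, and Mb, which encodes myoglobin, was at -0.69. Endothelium and pericyte genes had a median of -0.06, and the 10 erythrocyte genes one of -0.10.

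The higher genes included no list as a whole. Ivns1abp was followed by Pou2af1, Map7, Prrt2 (2.01), Zfp516 (1.89), Gm5441, Scgb2b2 (1.71), Plekha6 and Slc26a4, then by Fmr1nb (1.57), Fgf13 (1.53), Adat2, Srpk3 (1.5), Scgb1b30 (1.48) and Sel1l2 (1.46), and of these Map7 was the one with 2 probes each past 2-fold. With normexp several came under 2-fold, namely Zfp516 (0.93), Slc26a4 (0.83), Srpk3 (0.67), Scgb1b30 (0.66), Plekha6 (0.64), Fgf13 (0.57) and Sel1l2 (0.49). Fmr1nb came to 0.86 with no filter. Zfp516 is a zinc finger factor known to drive Ucp1 transcription, and it gave 30.2 in the WT pool and 106 in the ASK1-deficient one, where Ucp1 was lower. Ivns1abp had the highest mean, 4.87, from 1 probe at 9.73, a single spot with a signal of 262447 on the ASK1-deficient array, and a second probe at 0.00, with 5721 and 5391. Of 10 measured secretoglobins, small secreted proteins taken by their symbols after the values were seen, 3 were at least 2-fold higher, beside 0.286% of all genes, and 8 lay above 0, with a median of 0.68.

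Several of the differing genes lie in the same stretch of chromosome 10 as Map3k5, at very different distances. Map7 is the closest. Counted from the first Map3k5 probe, Hebp2 lies at -1.6 Mb, Adat2 at -6.58 Mb and the lincRNA described below at -13.37 Mb. Map7, which encodes a microtubule-associated protein and whose probes lie 0.14 Mb from the first Map3k5 probe, gave 67.5 in the WT pool and 303 in the ASK1-deficient one at one probe and 120 and 578 at the other (2.25 and 2.36). In iBAT the same probes were at 0.34 and 0.07. Adat2, a tRNA deaminase subunit, gave 427 and 1147 (1.51), and Hebp2, a heme-binding protein, 191 and 76.5 (-1.23), and in iBAT they were at 1.21 and -2.54. A lincRNA annotated at chr10:6480075-6603900 (mm9) had 4 measured probes, 3 of them at 2.01, 1.87 and 1.94 and the fourth at 0.68. Its first probe gave 54.5 in the WT pool and 206 in the ASK1-deficient one, and 23.8 and 136 in iBAT.

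In the first 40 Mb of chromosome 10, a window set after these values were seen, 11 of 284 measured probes, or 3.87%, were at least 2-fold apart in eWAT. The 11 include the first probe of Map3k5 itself and more than 1 probe of the lincRNA and of Map7, so they are not independent. Among them were also single probes of Esr1 (-1.94), Armt1 (1.13) and Akap7 (-1.01), while other probes of these genes were within 2-fold. Over all 31393 measured probes with a position the share was 1.04%. Of 29 probes that differed by 2-fold or more with the same sign in eWAT and iBAT, 4 lay in this window, which holds 0.89% of the probes measured in both, and 8 lay on chromosome 8, which holds 5.3%. The first Map3k5 probe is 1 of the 4 in this window. The part of sequence that came with the targeted locus in the colony was not tested.

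**Figure D5:**
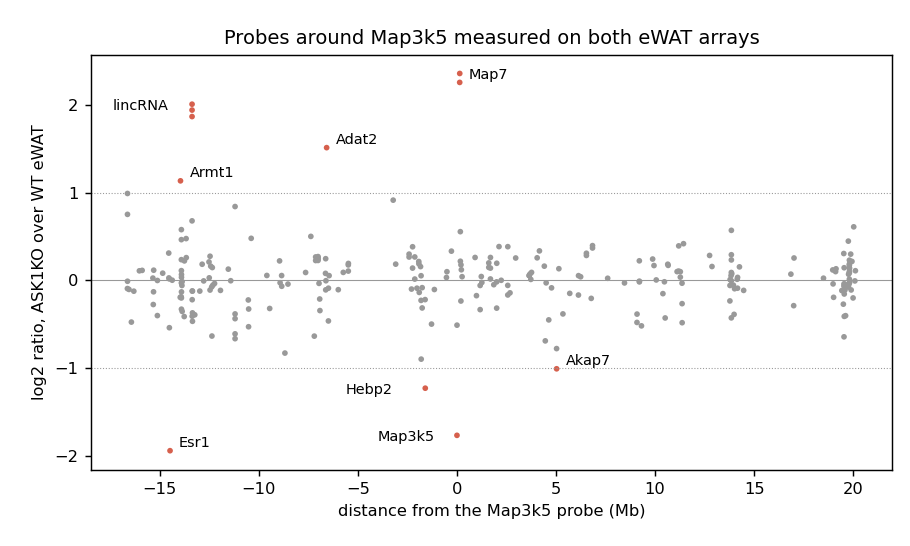
Log2 ratio (ASK1-deficient over WT eWAT) of the 284 measured probes in the window around Map3k5, by distance in Mb from the first Map3k5 probe; red points are the 11 probes at least 2-fold apart and dotted lines mark 2-fold. Map7 lies beside Map3k5 and on the opposite side of 0, and the lincRNA, Adat2 and Hebp2 lie to the left of both.

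Over the 14059 genes measured in both depots the log2 ratios had a Pearson correlation of 0.016, and the median of all genes in iBAT was -0.07. Of the 133 lower genes 81 were measured on both iBAT arrays, where 32 were also below 0 and the median was 0.16. Of the 44 higher genes 28 were measured there and 15 were also above 0. Among the genes not measured on both, Gbp2b was the 1 lower gene well above background in WT iBAT only, and 18 lower genes were so in ASK1-deficient iBAT only, 4 of them at least 2-fold higher there. Lower by 2-fold or more in both depots were 10 of the measured genes, and higher in both were 3. With normexp 7 of those 10 and 2 of those 3 came under 2-fold in eWAT. In iBAT as a whole 1.02% of genes were at least 2-fold lower and 0.835% at least 2-fold higher, together 1.85%. The 10 lower ones were Niban3, Zfp963, Hebp2, Tatdn2, Map3k5, Cish, Adh4, Gm6524, Acot11 and Dio2, and the 3 higher ones Cdsn, Vsx1 and Adat2. Cish, which is induced by cytokines and growth hormone and dampens their signal, was the brightest of the lower ones in eWAT. It gave 4760 in the WT pool and 2081 in the ASK1-deficient one (-1.11) and 9788 and 2832 in iBAT (-1.85). Dio2 gave 117 and 54.0 in eWAT and 9820 and 1978 in iBAT. Cdsn, a protein of skin cell junctions, gave 5208 and 9876 in eWAT and 1058 and 3894 in iBAT. Whether the same animals gave both tissues is not given in the sources used here.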

How the data were processed

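The genes, lists and tests described here were chosen with earlier results of these data known. Per the labels and the study's methods, 1 array was hybridized for each genotype and tissue. The authors deposited Agilent Feature Extraction 10.7.3.1 output, in which the processed signal is a background-corrected intensity, not scaled between arrays, and a series table of signal values, which equal the processed signal divided by 1 constant for each array.

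After control and outlier spots were dropped, spots were averaged on the log2 scale for each probe, and each array's 75th percentile was subtracted. A gene's value is the mean log2 ratio of those probes that passed the scanner software's background flag on both arrays. Where 1 array failed it, the fold is a lower limit, taken against the dim spot or the dimmest flagged signal, whichever was brighter. Of 34844 gene names 22147 matched RefSeq symbols or unique synonyms. Antibody probes were named from their descriptions. Probe positions are those of the files (mm9), and exons were not assigned.

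A list was described by counts and its median, since no test is possible with 1 array for each condition. Genes were named by rule: Map3k5, the 15 highest and 15 lowest, the 5 largest bounds each way, list members at least 2-fold apart with up to 6 others, the defining markers and genes 2-fold the same way in both depots. Families taken by symbol, the antibody probes and further genes were chosen after their values were seen. The alternatives were normexp with an offset of 50, other scalings, quantile and loess normalization, the series table, other filters, the brightest probe, thresholds of 1.5-fold and 3-fold, and all gene names. The values of a few list members are not reported here. The steps were tested on simulated data. Depth has no meaning for arrays, and their number limits the precision. Normexp, quantile and loess were run with limma 3.58.1 (R 4.3.3), the rest with pandas 2.3.3 and numpy 2.4.6 under Python 3.11.15, with figures from matplotlib 3.10.9.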

Additional observations from a re-analysis of the deposited data

Results flagged for a closer look

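Of the genes at least 2-fold apart in eWAT, 12 were at least 2-fold apart in the opposite direction in iBAT. The difference between the depots was not tested, since each rests on 1 array of each genotype. Of these, 10 are liver transcripts, lower in ASK1-deficient eWAT and higher in ASK1-deficient iBAT. The eWAT and iBAT log2 ratios were -6.30 and 1.95 for Mup20, -6.06 and 1.21 for Mup17, -5.98 and 1.21 for Mup9, and -5.93 and 1.23 for Mup19. They were -5.74 and 1.44 for Mup4, -5.32 and 1.75 for Mup3, and -5.09 and 1.5 for Mup5. For the protease inhibitors they were -3.96 and 1.78 for Serpina1e, -3.81 and 1.95 for Serpina1c, and -3.47 and 1.55 for Serpina1a. The other 2 were higher in eWAT and lower in iBAT, at 1.01 and -1.60 for Slc2a5, the fructose transporter, and 1.08 and -1.78 for Atp4b, a subunit of the gastric proton pump.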

How the results depend on the processing

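The counts of genes at least 2-fold higher and lower, 44 and 133, were 10 and 50 with normexp background correction, 432 and 604 with no filter, 27 and 79 with a signal of at least 50 on both arrays, 212 and 410 at 1.5-fold and 9 and 46 at 3-fold. With all gene names of the files 81 were higher. Under the other scalings, the series table and the brightest probe they lay within 1.5 times. The brown list's median minus that of all genes, -0.40, was -0.27 with normexp. That of the hepatocyte list, -2.10, was -1.32 with normexp, -3.17 with no filter, -1.88 with a signal of at least 50 and -1.93 with the brightest probe. Over 643 values none of the 66 named genes past 2-fold changed sign, but 28 came under 2-fold in at least 1 alternative. Of 360 list medians set against all genes 10 changed sign, in 4 lists whose reported size was at most 0.04. Among the 28 genes were Map3k5, at -0.51 with its brightest probe, Dio2, at -0.56 with normexp, Tnf, at -0.42 with normexp, and Apoa2, at -0.74 with its brightest probe. The cause of these changes was not tested. No paired analysis was possible because each condition has 1 array, and for the same reason no array could be left out. Signal over background limits the dim genes.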

Other observations

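Genes known to respond to glucocorticoids included several that lay on the same side in both depots. In eWAT and iBAT the log2 ratios were 0.93 and 2.23 for Zbtb16, 0.74 and 1.02 for Angptl4, 0.62 and 1.64 for Fkbp5, an inhibitory chaperone of the glucocorticoid receptor, and -0.71 and -0.79 for Mt1, which encodes a metallothionein. Mt1 thus lay below 0 in both depots and the others above. The Mt1 value is a mean over probes, of which 1 was at -1.37 in eWAT and -1.34 in iBAT. Zbtb16 gave 9210 in the WT pool and 16474 in the ASK1-deficient one, and Fkbp5 7944 and 11497. Others of the list were nearer to 0 in eWAT, with Sgk1 at -0.05 and Tsc22d3 at 0.25. The list of 15 genes had a median of 0.11 in eWAT, and none was 2-fold apart as a mean over its probes.

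Of 20 measured immediate early genes, transcription factors and others that cells switch on within minutes of a stimulus, 17 lay below 0 in eWAT, beside 45.9% of all genes, with a median of -0.31. Nr4a1 was the lowest at -0.87, with 3194 in the WT pool and 1642 in the ASK1-deficient one, and Egr1 gave 2083 and 1258. Of 20 measured cell cycle genes 18 lay below 0, beside the same 45.9%, with a median of -0.21. Mki67, a marker of dividing cells, gave 894 in the WT pool and 557 in the ASK1-deficient one, and Cdk1, the kinase that drives mitosis, 116 and 61.8.

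Of 10477 measured probes with no matched gene 52 were past 2-fold on the higher side and 42 on the lower side. Over all measured probes with a position 1.04% were at least 2-fold apart. Of the 24 spots beside the bright Ivns1abp spot on the slide 17 were well above background on 1 of the arrays and 1 was 2-fold apart, and of those beside the Slc6a7 spot 13 were and 1 was 2-fold apart.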
